A study of Mus musculus with 9 samples.

Results

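The genes described here are 9 components of the Nodal signalling pathway, chosen by symbol: the ligands Nodal and Gdf3, the co-receptors Tdgf1 (Cripto) and Cfc1 (Cryptic), the receptor Acvr2b, the inhibitors Lefty1 and Lefty2, and the effectors Smad2 and Foxh1. Each symbol matched 1 row of the 47729 genes in the expression table, and all 9 were among the 17951 genes tested, those with a mean of at least 0.1 FPKM (fragments per kilobase of transcript, scaled to the mapped fragments of the library) over the 9 libraries. RNA came from mouse embryonic stem cells (ESCs) grown in LIF and serum, a medium that holds the cells in self-renewal, in which doxycycline (dox) induces a forced homodimer of the bHLH transcription factor E2A. The homodimer is made of a FLAG-tagged mouse E47, a splice form of E2A, tethered to another E47 by a flexible linker, and its cassette was placed upstream of the Hprt gene. There were 3 libraries of untreated cells (0 h), 3 after 18 h of dox and 3 after 24 h, and every library, the untreated ones included, carries the transgene. Cells without the transgene given dox were not analysed here, so effects of dox and of the homodimer cannot be told apart.

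Depth ranged from 22028363 to 26471569 reads per library. Tcf3, the gene that encodes E2A, was at 41.2, 37.7 and 38.5 FPKM at 0 h, at 116, 107 and 107 FPKM at 18 h, and at 104, 93.6 and 108 FPKM at 24 h, so that every treated library lay above every untreated one. Reads of the transgene and of the endogenous Tcf3 cannot be told apart in this value. All 8 ESC markers examined (Pou5f1, Nanog, Sox2, Zfp42, Esrrb, Klf4, Utf1 and Dppa5a) were expressed at each time, with a summed level of 1319 to 1980 FPKM at 0 h, 1090 to 1712 FPKM at 18 h and 1025 to 1666 FPKM at 24 h.

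Nodal is a secreted ligand of the TGFβ superfamily that signals through type I and type II activin receptors, and it needs an EGF-CFC co-receptor (Cripto or Cryptic) to do so. The activated receptors phosphorylate SMAD2 and SMAD3, which enter the nucleus with SMAD4 and act on DNA together with partners such as FOXH1. Lefty proteins bind Nodal and its co-receptor and block signalling, and the Nodal and Lefty genes are themselves targets of the pathway, which gives it both positive and negative feedback. In pluripotent cells and the early embryo the pathway is known for holding back neural fate and for patterning mesoderm and endoderm.

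Of the 9 genes, the co-receptor Tdgf1 and the inhibitor Lefty2 fell at both times after dox, the inhibitor Lefty1 rose at 24 h, and the ligands Nodal and Gdf3 and the receptor Acvr2b did not pass the test at either time. In limma fits of log2(FPKM + 0.1), where a gene passed at an adjusted p of at most 0.05, 2 of 9 genes were lower at 18 h than at 0 h, against a background of 3.72% of all genes tested that were lower. The remaining 7 did not pass at 18 h, when 4.27% of all genes were higher. At 24 h, 2 of 9 were lower, against 5.11% of all genes, and 2 of 9 (Lefty1 and Smad2) were higher, against 6.52%. With the replicate number as a block, 1 of 9 (Smad2) was higher and 2 lower at 18 h, against 10.8% and 10.7% of all genes. With that block 3 of 9 (Cfc1 in addition) were higher and 3 (Foxh1 in addition) lower at 24 h, against 13.6% and 12.5%. The median log2 fold-change of the 9 genes was 0.025 at 18 h and -0.11 at 24 h, against -0.0030 and 0.0040 over all genes. With libraries left out in turn it ran from -0.031 to 0.098 at 18 h and from -0.17 to -0.022 at 24 h. Both comparisons share the untreated libraries. The study describes the replicates as biological experiments.

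**Figure D1:**
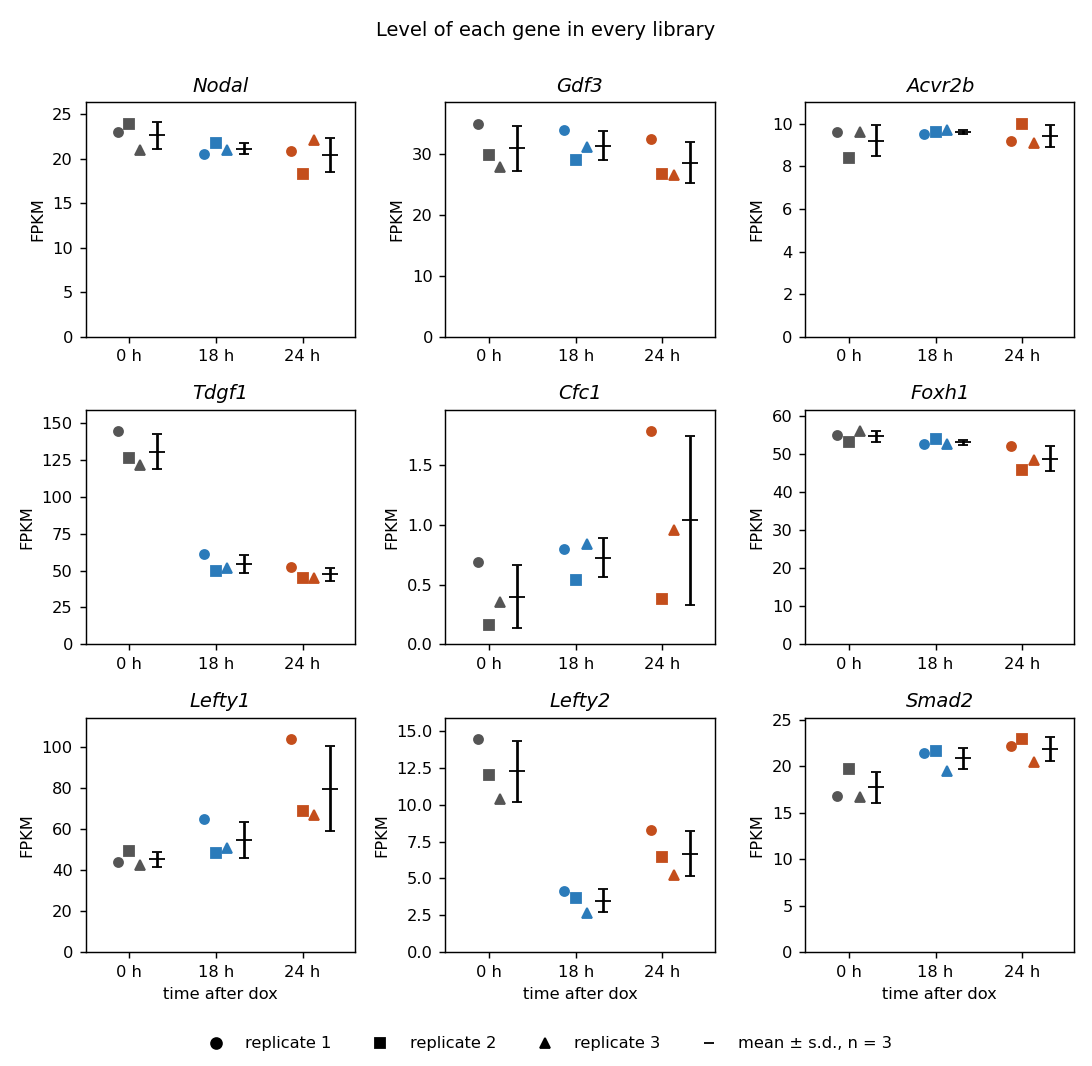
Expression (FPKM) of the 9 genes in each library at 0, 18 and 24 h of dox, 1 panel per gene with its own linear axis; points are libraries and lines with bars are the mean±s.d. of 3 libraries. Tdgf1 falls from 121 to 144 FPKM at 0 h to 49.8 to 61.2 FPKM at 18 h, Lefty2 is lowest at 18 h, Lefty1 is highest at 24 h, and the points of Nodal, Gdf3 and Acvr2b overlap across times.

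Tdgf1 encodes Cripto, the membrane-anchored co-receptor that lets Nodal engage its receptors. It lies on the minus strand at chr9:110939603-110946158 (GRCm38, GENCODE M21), with 7 merged exon blocks. The level was 144, 126 and 121 FPKM in the libraries at 0 h. After 18 h it was 61.2, 49.8 and 51.6 FPKM. After 24 h it was 52.5, 44.9 and 44.9 FPKM. Every treated library lay below every untreated one, while the libraries at 18 h and 24 h overlapped. The means were 131±12.1, 54.2±6.14 and 47.5±4.38 FPKM (±s.d., n=3), a fall of 2.41-fold at 18 h and 2.75-fold at 24 h. The limma log2 fold-change was -1.27 (95% confidence interval -1.50 to -1.04, adjusted p=0.000295) at 18 h and -1.46 (-1.69 to -1.23, adjusted p=0.000115) at 24 h. These values rest on 6915 to 9017 recovered reads per library at 0 h and on 3007 to 3668 reads after dox. In such bulk RNA, fewer cells that express a gene and less RNA per cell cannot be told apart.

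The DNA just upstream of the Tdgf1 start site is shown because Tdgf1 is the member with the largest drop in reads after dox, and beside it that of Nodal, which did not pass the test. Both come from RefSeq (GRCm38.p6), where 4 of 9 members had an entry (Acvr2b, Cfc1, Nodal and Tdgf1). Capitals mark E-boxes, the letters CANNTG searched on both strands, the motif that E proteins such as E2A bind. The Tdgf1 sequence runs over chr9:110946139-110946408 on the minus strand, with 250 bases before the start site and 20 after it, and that of Nodal over chr10:61417722-61417971 on the plus strand, with the 250 bases before its start.
Tdgf1: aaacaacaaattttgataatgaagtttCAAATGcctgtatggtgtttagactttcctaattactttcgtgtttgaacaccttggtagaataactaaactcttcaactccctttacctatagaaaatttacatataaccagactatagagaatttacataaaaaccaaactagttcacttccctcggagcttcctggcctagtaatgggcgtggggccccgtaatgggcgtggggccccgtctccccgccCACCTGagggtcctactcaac
Nodal: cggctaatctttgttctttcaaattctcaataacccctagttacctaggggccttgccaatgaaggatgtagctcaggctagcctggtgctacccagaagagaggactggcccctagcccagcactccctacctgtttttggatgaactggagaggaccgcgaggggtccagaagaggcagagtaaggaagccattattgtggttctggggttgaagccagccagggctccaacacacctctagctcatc
In windows of 250 bases before to 50 after the start, Tdgf1 held 2 E-boxes, CAAATG beginning at position -223 and CACCTG beginning at position -1, where -1 is the last base before the start site. Any E-box was present in 72.3% of 32851 such windows, and CACCTG or its reverse complement CAGGTG, a subset of those letters, in 20.2%. The Tdgf1 window also held AATTTACA at -127 and at -101, matches to AATNNACA, letters present in 12.2% of windows. AATNNACA takes in core sites described for FOXH1, but N stands for any base. A match to it, AATTTACA included, need not be such a core site. The windows of Nodal, Cfc1 and Acvr2b held none of the motifs named above, nor CAGCTG, which 16.3% of windows held. A match describes the sequence and was not tested as a binding site, and the absence of one says only that the letters are not in this window.

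Tdgf1-ps1, a processed pseudogene of Tdgf1 at chr16:3730510-3731022, moved with its parent and had a mean of 29.3±2.83 FPKM at 0 h, 13.0±2.33 FPKM at 18 h and 10.7±1.84 FPKM at 24 h. Of its 464 stretches of 50 bases, 236 (50.9%) also occur in Tdgf1, whereas they make up 8.86% of those of Tdgf1. The ratio of Tdgf1-ps1 to Tdgf1 was 0.224±0.00107, 0.239±0.0166 and 0.224±0.0172 at the 3 times, and how reads matching both were counted is not given in the sources used here. The pseudogene level is therefore uncertain, and the value of Tdgf1 is uncertain over the shared stretches.

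Cfc1 encodes Cryptic, the other EGF-CFC co-receptor, and lies at chr1:34535648-34544313 on the plus strand. It was scarce, at 0.685, 0.160 and 0.354 FPKM at 0 h. At 18 h it was 0.799, 0.540 and 0.835 FPKM, and at 24 h 1.78, 0.377 and 0.953 FPKM. The groups overlapped, with replicate 1 highest at 0 h and at 24 h. Only 4 to 17 reads per library were recovered at 0 h, 14 to 21 at 18 h and 10 to 47 at 24 h. By limma, the log2 fold-change of Cfc1 was 0.85 (95% interval -0.32 to 2.01, adjusted p=0.345) at 18 h and 1.12 (-0.05 to 2.28, adjusted p=0.194) at 24 h. With the replicate number as a block, which pairs the libraries, limma gave an adjusted p of 0.0683 at 18 h and 0.0249 at 24 h, so Cfc1 passed at 24 h only in blocked fits. With the block, 13.6% of all genes were higher at 24 h. Of its 991 stretches of 50 bases, searched on both strands, 24.3% also occur in Prss40, a gene on the opposite strand whose exons overlap those of Cfc1. Prss40 itself had means of 0, 0.0139 and 0 FPKM at 0, 18 and 24 h.

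The 2 Lefty genes, which encode secreted inhibitors of Nodal, lie 35918 bases apart on the plus strand of chromosome 1, with Lefty2 at chr1:180893108-180899103 and Lefty1 at chr1:180935022-180938400. Lefty2 was at 14.5, 12.0 and 10.4 FPKM at 0 h. It was at 4.14, 3.70 and 2.66 FPKM at 18 h and at 8.32, 6.47 and 5.26 FPKM at 24 h. The 3 groups did not overlap, with the libraries at 18 h lowest and those at 24 h between them and 0 h. The means were 12.3±2.05, 3.50±0.759 and 6.68±1.54 FPKM, a fall of 3.51-fold at 18 h and of 1.84-fold at 24 h compared with 0 h. The limma log2 fold-change of Lefty2 was -1.79 (95% interval -2.25 to -1.33, adjusted p=0.00211) at 18 h and -0.88 (-1.34 to -0.42, adjusted p=0.0271) at 24 h. The call at 24 h was lost when any of 4 libraries was left out (replicate 1 or 2 at 0 h, replicate 2 or 3 at 24 h), with limma adjusted p up to 0.0976 and log2 fold-changes from -1.05 to -0.72. These left-out fits had no replicate block. With the block and all libraries, the limma adjusted p of Lefty2 at 24 h was 0.000514, when 12.5% of all genes were lower.

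Lefty1 was at 43.8, 49.6 and 42.4 FPKM at 0 h. At 18 h it was at 64.9, 48.3 and 50.9 FPKM, and at 24 h at 104, 68.9 and 66.8 FPKM. The groups at 0 h and 18 h overlapped, and every library at 24 h lay above every library at the other times. The means were 45.3±3.82, 54.7±8.95 and 79.9±20.9 FPKM, or 1.21-fold and 1.77-fold the level at 0 h. The limma log2 fold-change of Lefty1 was 0.26 (95% interval -0.12 to 0.65, adjusted p=0.377) at 18 h and 0.79 (0.40 to 1.18, adjusted p=0.0209) at 24 h. The call at 24 h was lost without replicate 1 or without replicate 3 at 0 h, and over the 6 libraries left out in turn the limma adjusted p ran from 0.0286 to 0.0706. These left-out fits had no replicate block. With the block and all libraries, the limma adjusted p of Lefty1 at 24 h was 0.00663, when 13.6% of all genes were higher.

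The ratio of Lefty1 to Lefty2, both in FPKM and so per length, was 3.03, 4.13 and 4.08 in the libraries at 0 h. It was 15.7, 13.0 and 19.1 at 18 h and 12.5, 10.7 and 12.7 at 24 h. Every treated library had a higher ratio than every untreated one, and the means were 3.75±0.623, 15.95±3.05 and 12.0±1.13. The log2 ratio was 2.09 higher at 18 h than at 0 h and 1.68 higher at 24 h, each with a two-sided exact permutation p=0.1, the smallest that 3 libraries against 3 allow. In untreated cells Lefty2 made up 21.3±3.02% of the summed Lefty level, against 6.03±1.08% after 18 h of dox and 7.76±0.710% after 24 h. The sum itself was 57.5±4.47, 58.2±9.44 and 86.6±22.3 FPKM, so the fall of Lefty2 at 18 h came with an overlapping total. Of the stretches of 50 bases, 17.9% of those of Lefty1 and 12.0% of those of Lefty2 also occur in the other gene, and both values are uncertain over these stretches.

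**Figure D2:**
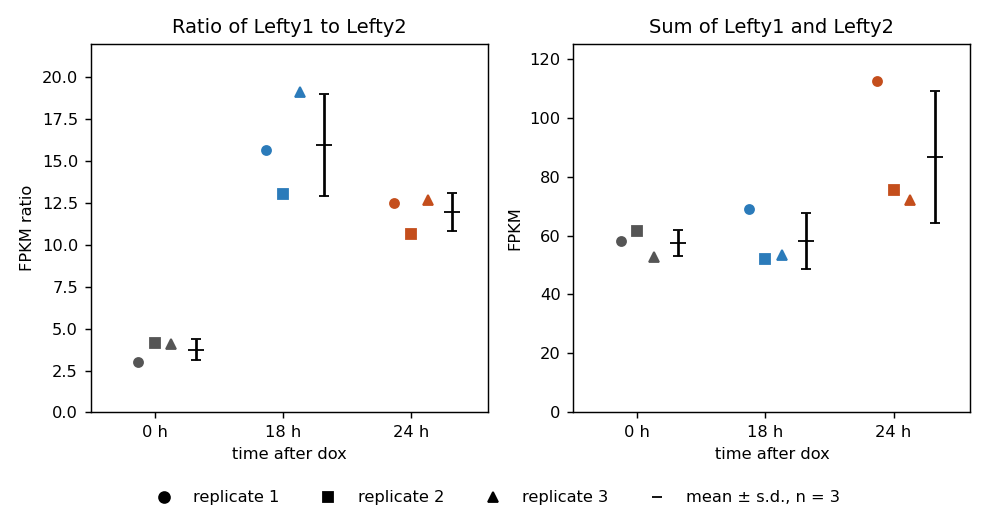
Ratio of Lefty1 to Lefty2 FPKM (left) and summed Lefty level in FPKM (right) in each library at 0, 18 and 24 h of dox; points are libraries and bars are the mean±s.d. of 3 libraries. The ratio is 3.03 to 4.13 in untreated libraries and 10.7 to 19.1 in treated ones, while the sums at 0 h and 18 h overlap.

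Nodal, at chr10:61417972-61425338 on the plus strand, was at 23.0, 24.0 and 21.0 FPKM at 0 h. It was at 20.5, 21.8 and 21.1 FPKM at 18 h and at 20.9, 18.4 and 22.1 FPKM at 24 h. The groups overlapped throughout, with means of 22.6±1.53, 21.1±0.621 and 20.5±1.91 FPKM. The limma log2 fold-change of Nodal was -0.10 (95% interval -0.28 to 0.08, adjusted p=0.486) at 18 h and -0.15 (-0.33 to 0.03, adjusted p=0.258) at 24 h. The intervals reach no lower than -0.33 on the log2 scale, whereas those of Tdgf1 lie wholly below -1. The mean ratio of Tdgf1 to Nodal was 5.77±0.502 in untreated cells, against 2.57±0.362 after 18 h and 2.33±0.259 after 24 h of dox.

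Gdf3, a ligand related to Nodal that also signals through Cripto, lies at chr6:122605403-122610087 on the minus strand. It was at 35.0, 29.9 and 28.0 FPKM at 0 h. It was at 33.9, 29.1 and 31.2 FPKM at 18 h and at 32.5, 26.8 and 26.6 FPKM at 24 h. Replicate 1 was the highest at each time and the groups overlapped. In limma, the log2 fold-change of Gdf3 was 0.025 (95% interval -0.22 to 0.27, adjusted p=0.908) at 18 h and -0.11 (-0.36 to 0.13, adjusted p=0.524) at 24 h.

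Acvr2b encodes a type II activin receptor through which Nodal signals and lies at chr9:119402118-119434995 on the plus strand. It was at 9.64, 8.39 and 9.63 FPKM at 0 h. It was at 9.53, 9.64 and 9.72 FPKM at 18 h and at 9.21, 10.0 and 9.09 FPKM at 24 h. The groups overlapped, and the limma log2 fold-changes of Acvr2b were 0.065 (95% interval -0.10 to 0.23, adjusted p=0.627) at 18 h and 0.035 (-0.13 to 0.20, adjusted p=0.798) at 24 h.

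Among the effectors, Smad2, which carries the receptor signal to the nucleus, lies at chr18:76241580-76310963 on the plus strand. It was at 16.8, 19.7 and 16.7 FPKM at 0 h. It was at 21.4, 21.6 and 19.5 FPKM at 18 h and at 22.2, 22.9 and 20.5 FPKM at 24 h. The groups at 0 h and 18 h overlapped, and every library at 24 h lay above those at 0 h. The limma log2 fold-change of Smad2 was 0.24 (95% interval 0.05 to 0.42, adjusted p=0.108) at 18 h and 0.30 (0.12 to 0.48, adjusted p=0.0430) at 24 h, or 1.18-fold and 1.23-fold the mean at 0 h. With the replicate block the limma adjusted p at 18 h was 0.0170, so Smad2 passed there too, as did 10.8% of all genes in that direction. The call of Smad2 at 24 h was lost without any of 5 libraries (replicates 1 and 3 at 0 h, and each replicate at 24 h), with limma adjusted p from 0.0180 to 0.143 over the 6 libraries left out in turn. That call was also lost with no filter on FPKM and with only the 2 time points fitted (limma adjusted p up to 0.0870). None of these fits had the replicate block. With the block and all libraries, the limma adjusted p of Smad2 at 24 h was 0.00580, when 13.6% of all genes were higher.

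Foxh1, the forkhead partner of SMAD2 on DNA, lies at chr15:76668225-76669948 on the minus strand. It was at 55.0, 53.1 and 55.9 FPKM at 0 h. It was at 52.6, 53.9 and 52.6 FPKM at 18 h and at 52.1, 45.7 and 48.5 FPKM at 24 h. The libraries at 24 h all lay below those at the other times, while those at 0 h and 18 h overlapped. In limma, the log2 fold-change of Foxh1 was -0.043 (95% interval -0.17 to 0.09, adjusted p=0.676) at 18 h and -0.17 (-0.29 to -0.04, adjusted p=0.0935) at 24 h. With the replicate block Foxh1 passed at 24 h (limma adjusted p=0.0431), when 12.5% of all genes were lower.

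**Figure D3:**
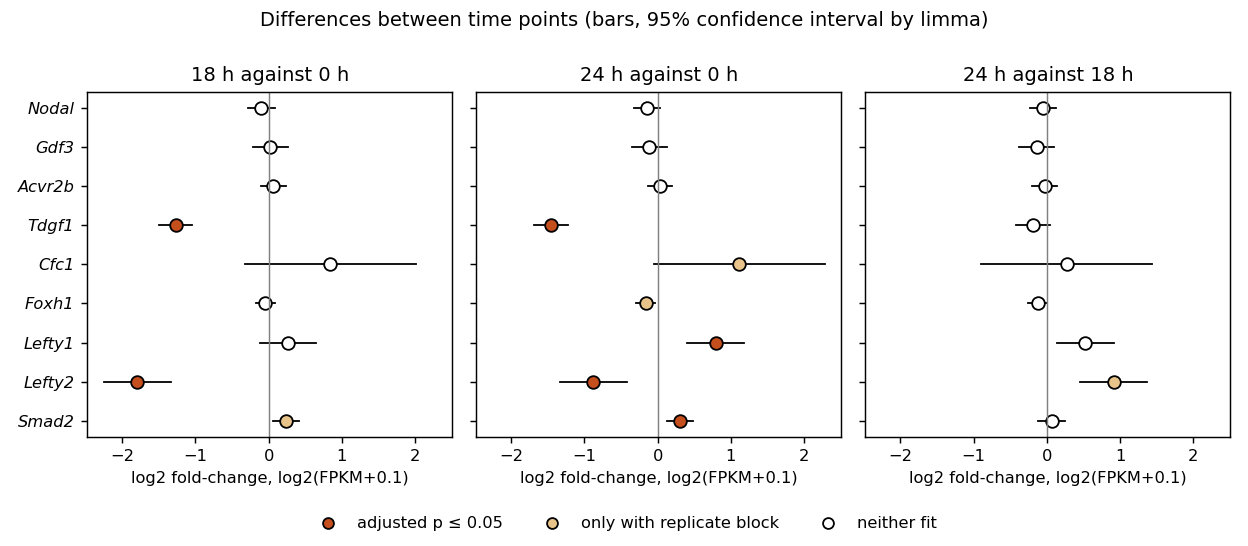
Log2 fold-changes of the 9 genes with 95% confidence intervals from limma on log2(FPKM + 0.1), for 18 h and 24 h against 0 h and for 24 h against 18 h. Filled points passed an adjusted p of 0.05 and tan points passed only with the replicate block; Tdgf1 and Lefty2 at 18 h and Tdgf1 at 24 h lie beyond a log2 fold-change of -1.

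In the comparison of 24 h with 18 h, 0 of 9 genes passed in limma, against 0.0167% of all genes higher and 0.00557% lower, and edgeR without a block also called 0 of the 9, with 0% of all genes higher. At an unadjusted limma p under 0.05 there were 2 of the 9, Lefty1 and Lefty2, among 1004 genes in all, or 5.59% of the genes tested. Lefty2 was 1.91-fold and Lefty1 1.46-fold higher at 24 h than at 18 h, with limma log2 fold-changes of 0.91 (95% interval 0.45 to 1.37, adjusted p=0.524) and 0.53 (0.14 to 0.92, adjusted p=0.857). DESeq2 on the recovered reads called Lefty2 alone (adjusted p=0.0029), as did limma with the replicate block (adjusted p=0.0401). DESeq2 called 0.256% of all genes higher, and blocked limma called 0.0334% higher and 0.0111% lower. edgeR with the replicate block called Lefty2 (adjusted p=5.28e-05) and Lefty1 (adjusted p=0.0118), with 0.931% of all genes higher.

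At 0 h the order of levels was Tdgf1, Foxh1, Lefty1, Gdf3, Nodal, Smad2, Lefty2, Acvr2b and Cfc1, and no neighbours in it overlapped. At 18 h Lefty1, Tdgf1 and Foxh1 stood together at the top, with the range of Tdgf1 overlapping both. At 24 h Lefty1 stood above Foxh1 and Tdgf1, which overlapped, and Lefty2 had dropped below Acvr2b at both times after dox. The ranges of Nodal and Smad2 did not overlap at 0 h but did at 18 h and 24 h.

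The genes most like a member in their pattern were found by the root mean square difference of log2 values, centred per gene, over the 9 libraries and 11893 genes with a mean of at least 1 FPKM. Tdgf1 was closest to Tdgf1-ps1 (0.0818), with which it shares sequence, then to Bcat1 (0.180) and Adap1 (0.203), the last of which went from 4.66 to 1.84 and 1.69 FPKM. Lefty1 was closest to Ube2l6 (0.142), Slco4c1 (0.150) and Ifi35 (0.165). Lefty2 was closest to Gm26384 (0.288), Rnu73b (0.300) and Rln3 (0.359). Nodal was closest to Ddx55 (0.0499), Gpatch4 (0.0531) and Trnau1ap (0.0533). The measure grows with a gene's own spread about its mean, which was 0.657 for Tdgf1, 0.389 for Lefty1, 0.771 for Lefty2 and 0.102 for Nodal, so it does not rank the members. These values describe likeness in 9 libraries only.

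Genes beside the members were examined after the members' values were known. Als2cl, 39072 bases from Tdgf1, fell from a mean of 3.58 FPKM to 1.89 and then 1.96 FPKM (limma adjusted p=0.00282 and adjusted p=0.00264). Lrrc2, 5386 bases from Tdgf1, went from 2.78 to 1.52 and 1.61 FPKM and did not pass in limma (adjusted p=0.221 and adjusted p=0.246). Tmem63a, 3943 bases from Lefty1, was at 5.65, 6.02 and 7.38 FPKM, with a limma log2 fold-change at 24 h of 0.38 (adjusted p=0.0499).

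Of 31 further genes of the activin, Nodal and TGFβ pathway, 28 were tested, while Gdf1 was listed at 0 in all libraries and Acvr1c and Cer1 had means under 0.1 FPKM. At 18 h 3 of 28 were higher in limma (Tgfbr3, Smad3 and Ski) and 1 was lower (Pcsk6), when 4.27% of all genes were higher and 3.72% lower. With the replicate block 4 were higher (Skil in addition) and 3 lower (Acvr1b and Wwp2 in addition), against 10.8% and 10.7% of all genes, so the share lower was near the background. At 24 h 2 were higher (Tgfbr3 and Smad3) and 2 lower (Pcsk6 and Wwp2), against 6.52% and 5.11% of all genes. With the block 6 were higher (Acvr2a, Tgfbr1, Skil and Ski in addition) and 2 lower, against 13.6% and 12.5%. The median log2 fold-change of the 28 genes was 0.05 at 18 h and 0.07 at 24 h, against -0.0030 and 0.0040 over all genes, and with libraries left out in turn it ran from 0.014 to 0.11 and from -0.00085 to 0.18.

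Smad3, the other SMAD that the Nodal receptors activate, was at 3.56, 4.80 and 5.31 FPKM at 0 h. It was at 8.13, 7.65 and 8.70 FPKM at 18 h and at 8.75, 9.66 and 8.51 FPKM at 24 h. All treated libraries lay above all untreated ones, with limma log2 fold-changes of Smad3 of 0.84 (adjusted p=0.00840) and 0.98 (adjusted p=0.00338). Tgfbr3, betaglycan, a co-receptor for TGFβ and inhibin, rose from 0.572±0.123 FPKM to 1.71±0.333 and 1.60±0.289 FPKM (limma adjusted p=0.00578 and adjusted p=0.00598). Pcsk6 encodes PACE4, a convertase that cleaves the Nodal precursor, and fell from 4.12±0.727 FPKM to 2.63±0.189 and 2.24±0.332 FPKM (limma adjusted p=0.0370 and adjusted p=0.00910). Ski, a SMAD corepressor, was higher at 18 h by a log2 fold-change of 0.23, and Wwp2, a ubiquitin ligase that acts on SMADs, was lower at 24 h by a log2 fold-change of -0.26 (limma adjusted p=0.0365 and adjusted p=0.0463). Over the 6 libraries left out in turn, Smad3 and Tgfbr3 passed each time at both times, as did Pcsk6 at 24 h. The call of Pcsk6 at 18 h was lost in 4 of 6 (all but replicates 2 and 3 at 0 h, limma adjusted p up to 0.121). That of Ski was lost in 5 (all but replicate 1 at 18 h, limma adjusted p up to 0.133). That of Wwp2 was lost in 4 (replicates 1 and 3 at 0 h, 2 and 3 at 24 h, limma adjusted p up to 0.151). With only the 2 time points fitted, Pcsk6 at 18 h, Ski and Wwp2 all lost their calls. So did Pcsk6 at 18 h and Wwp2 with no filter on FPKM, and Wwp2 with quantile normalization.

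Of 12 genes known as targets of Nodal or activin signalling in early embryos or ESCs, all tested, 2 were higher in limma at 18 h (Lhx1 and Fgf5) and 3 at 24 h (those and Nanog), against 4.27% and 6.52% of all genes, and the remaining ones did not pass. The median log2 fold-change of the 12 was 0.28 at 18 h and 0.60 at 24 h, against -0.0030 and 0.0040 over all genes. It was 0.072 and 0.20 with a pseudocount of 1, and 0.82 and 1.105 over the 4 targets with a mean of at least 1 FPKM, and ran from 0.17 to 0.39 and from 0.48 to 0.77 with libraries left out in turn. Nanog, a pluripotency factor, was at 45.1, 34.5 and 42.1 FPKM at 0 h, at 62.8, 46.5 and 61.1 FPKM at 18 h, and at 78.8, 64.1 and 77.4 FPKM at 24 h. The 3 groups did not overlap, and the limma log2 fold-change of Nanog at 24 h was 0.86 (adjusted p=0.00735). Fgf5, a growth factor of primed pluripotent cells, rose from 6.11 to 13.2 and 15.0 FPKM (limma adjusted p=0.0283 and adjusted p=0.0125). Lhx1, a LIM homeobox factor, rose from 0.0175 to 0.150 and 0.249 FPKM, all under 1 FPKM (limma adjusted p=0.0363 and adjusted p=0.00755), and rests on 1 to 2 reads per library at 0 h. The call of Lhx1 at 18 h was lost whichever of the 6 libraries was left out (limma adjusted p from 0.0512 to 0.119). It was also lost with a pseudocount of 1, with quantile normalization and with only the 2 time points fitted, and that at 24 h held over the libraries left out. The call of Fgf5 was lost at each time without replicate 2 or without replicate 3 of that time (limma adjusted p up to 0.108 at 18 h and up to 0.0552 at 24 h). At 18 h Fgf5 also lost its call with no filter on FPKM and with only the 2 time points fitted. With the replicate block limma called 4 targets higher at 18 h (Wnt3 and Nanog in addition) and 5 at 24 h (Gsc and Wnt3 in addition), and called T lower at both times, against 10.8% and 13.6% of all genes higher and 10.7% and 12.5% lower. Gsc rests on 0, 1 and 0 reads in the libraries at 0 h and on 11, 3 and 6 reads at 24 h. The log2 fold-change of T (brachyury, a mesoderm factor) at 24 h was -0.90, with limma adjusted p=0.217 without the block and 0.00713 with it.

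**Figure D4:**
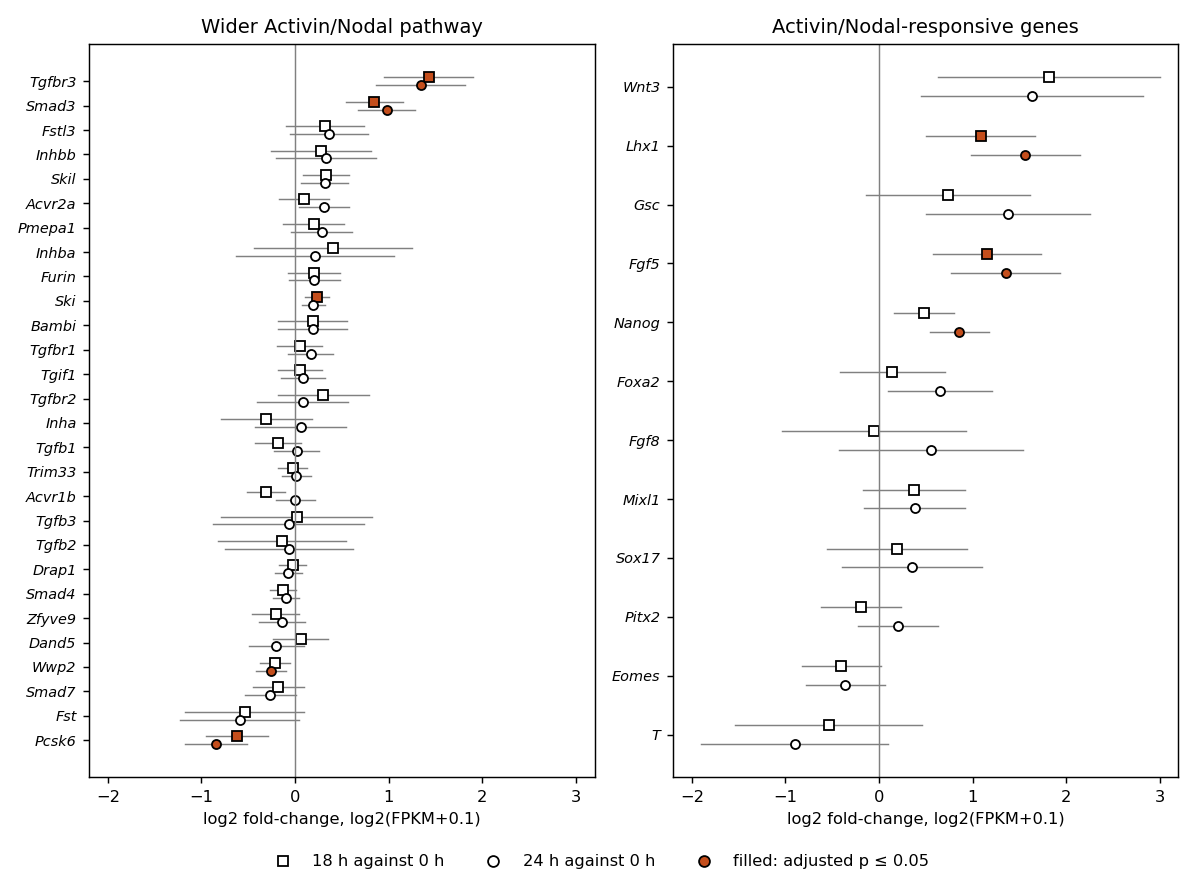
Log2 fold-changes from limma on log2(FPKM + 0.1) for the 28 tested genes of the wider pathway and the 12 target genes, at 18 h and 24 h against 0 h; filled points passed an adjusted p of 0.05. Among the genes that passed, Tgfbr3 and Smad3 lie highest in the pathway list and Lhx1 and Fgf5 in the target list, while Wnt3, which did not pass, lies higher than both at each time (1.82 and 1.64).

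Markers of other cell types were read beside these results. Of 6 trophectoderm markers, Cdx2 and Krt8 were higher in limma at 18 h and Cdx2, Krt8 and Tfap2c at 24 h, when 4.27% and 6.52% of all genes were higher. The call of Tfap2c at 24 h was lost in 5 of 6 fits that left out a library (all but replicate 2 at 24 h, limma adjusted p up to 0.114). It was also lost with no filter on FPKM, and the replicate block added Tfap2c at 18 h. Elf5 was under 0.1 FPKM in every library, and the summed level of the 6 was 170 to 196 FPKM at 0 h, 406 to 482 FPKM at 18 h and 364 to 493 FPKM at 24 h. Most of this sum was Krt8, at 175±13.8, 444±46.4 and 410±64.8 FPKM. The 6 endoderm markers summed to 4.44 to 5.35, 4.07 to 4.78 and 5.07 to 5.92 FPKM, with the mean of Sox7 over the 9 libraries under 0.1 FPKM. The 6 fibroblast markers summed to 4.89 to 9.86, 3.82 to 6.51 and 4.23 to 8.47 FPKM, with the means of Postn and Lum over the 9 libraries under 0.1 FPKM. Among them, Thy1 was at 2.08±0.322, 1.21±0.307 and 1.21±0.185 FPKM at the 3 times, with every treated library below every untreated one. It passed in limma at 24 h (adjusted p=0.0494), when 5.11% of all genes were lower, but not at 18 h (adjusted p=0.0573), and passed at both times with the block. The call of Thy1 at 24 h was lost whichever of the 6 libraries was left out (limma adjusted p from 0.0553 to 0.163). It was also lost with a pseudocount of 0.01, with no filter on FPKM and with only the 2 time points fitted. The other tested fibroblast markers, Col1a1, Col1a2 and Col3a1, had log2 fold-changes of 0.10, -0.10 and 0.21 at 24 h and did not pass. Among the ESC markers at 24 h, Nanog was higher and Pou5f1 lower (limma log2 fold-change -0.58, adjusted p=0.0220). The call of Pou5f1 was lost without replicate 1 at 0 h or without replicate 2 or 3 at 24 h (limma adjusted p up to 0.0865), and with only the 2 time points fitted. Nanog kept its call over the libraries left out. With the replicate block limma called Nanog and Klf4 higher and Pou5f1 and Dppa5a lower at 18 h, and Klf4 higher and Utf1 and Dppa5a lower in addition at 24 h, when blocked fits called 10.8% of all genes higher and 10.7% lower at 18 h and 13.6% and 12.5% at 24 h. The part of these changes in the values of the 9 genes was not tested.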

How the data were processed

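The authors sequenced poly(A) RNA with a stranded kit (TruSeq), trimmed reads (cutadapt 1.9 in the submitters' processing notes), aligned them with STAR to GRCm38 and used edgeR 3.16.5. They deposited FPKM per gene and a signal table of counts scaled to library size (CPM) with library factors; how reads were assigned to genes was not given in the sources used here. Columns with the authors' own fold-changes, p-values and mean values were not used. Whole reads were recovered from the scaled signal table: 100% of 19210 values per library were whole within 0.01.

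Here, log2(FPKM + 0.1) of genes with mean FPKM of at least 0.1 was fitted with limma 3.58.1 (trend, all 9 libraries, time point only, two-sided, Benjamini-Hochberg over all 17951 genes). Fold-changes on this scale understate those of low genes. edgeR 4.0.16 and DESeq2 1.42.0 on the recovered reads, other pseudocounts, filters, quantile normalization, a replicate block and leaving out each library were alternatives. Fits that left out a library had no replicate block. The fits were also run on simulated counts with the same dispersion for every gene and no replicate effect, a simpler setting than these libraries. There, limma, edgeR and DESeq2 passed 81%, 89% and 85% of the simulated 2-fold changes. Replicate numbers, from the sample titles, were taken to pair the libraries: deviations from group means correlated in all 9 same-number pairs (r 0.211 to 0.548) over 11893 genes. Blocked values are given where they change a call of a member, list or marker gene, and for Lefty1, Lefty2 and Smad2 at 24 h. Flanking genes were not refitted. Ratios were compared by exact permutation tests.

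Groups came from the titles and treatment labels; the treatment protocol text names other hours, and the titles were followed. Named genes were the 9 members, the pathway and target lists by role, the marker lists by count, Tcf3, the Tdgf1 pseudogenes, the nearest genes in pattern and flanking genes. Members and lists were chosen with earlier results of these data known. Genome positions are from GENCODE M21. R 4.3.3 and Python 3.11.15 were used.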

Additional observations from a re-analysis of the deposited data

How the results depend on the processing

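The falls of Tdgf1 at both times and of Lefty2 at 18 h passed under every alternative run. Nodal, Gdf3 and Acvr2b passed under none against 0 h. Against 0 h at 18 h, 1 member was higher with the replicate block in limma and 1 with it in edgeR (0 without), and leaving out each library gave 0 to 1. At 24 h, 1 member was higher with no filter on FPKM and 1 with only the 2 time points fitted, against 2 as reported and 3 with the block, and leaving out each library gave 0 to 2 higher and 1 to 2 lower. Between 24 h and 18 h, 1 member was higher with the replicate block in limma, 2 with the block in edgeR and 1 in DESeq2. For the pathway and target lists the alternatives other than the pathway block were added after seeing the data. In the pathway list, the count lower at 18 h (1) was 0 with no filter, 0 with only the 2 time points, 3 with the block, 2 in edgeR, 4 in edgeR with the block, 2 in DESeq2 and 0 to 2 with libraries left out, and the count higher (3) was 5 in edgeR with the block. In edgeR with the block 5 of 28 were thus higher and 4 lower, when 2743 of 16010 genes were higher and 2572 lower. Both shares were near the background. At 24 h the pathway count higher (2) was 6 with the block, 7 in edgeR with the block, 4 in DESeq2 and 2 to 3 with libraries left out, and the count lower (2) was 1 with no filter, with quantile normalization or with only the 2 time points, 4 in edgeR with the block and 1 to 2 with libraries left out. In edgeR with the block 3175 of 16010 genes were higher and 2942 lower at that time. In the target list, the count higher at 18 h (2) was 1 with a pseudocount of 1, with no filter or with a mean of at least 1 FPKM, 0 with only the 2 time points, 4 with the block, in edgeR with or without it and in DESeq2, and 0 to 2 with libraries left out. Of the 12 targets, edgeR tested 10 without the block and 11 with it. At 24 h the target count higher (3) was 5 with the block in limma or edgeR, and 2 to 3 with libraries left out. Targets lower, 0 in the reported fit, were 1 with the block in limma and 2 in edgeR at both times. Between 24 h and 18 h, edgeR with the block called 1 pathway gene and 1 target higher. The block changed no call of a member other than those given with the gene. Signs turned, none with a call, for Nodal at 24 h against 18 h over libraries left out in turn (-0.11 to 0.026), Gdf3 at 18 h (-0.045 to 0.12), Cfc1 at 24 h against 18 h (-0.20 to 0.79), Acvr2b at 18 h (-0.0010 to 0.098) and at 24 h (-0.031 to 0.068), and Foxh1 at 18 h with quantile normalization (0.015). The counts above stand against these over all genes. At 18 h, 766 of 17951 genes were higher and 667 lower in limma, and 1941 and 1929 with the block. With no filter on FPKM 554 and 442 of 27823 were higher and lower, and with only the 2 time points 350 and 252 of 17951. In edgeR the counts were 1160 and 924 of 15648, in edgeR with the block 2743 and 2572 of 16010, and in DESeq2 1291 and 1159 of 16230. At 24 h, with the same numbers tested, limma called 1171 and 917, and 2434 and 2243 with the block. It called 852 and 627 with no filter on FPKM, and 604 and 461 with only the 2 time points. Counts were 1585 and 1214 in edgeR, 3175 and 2942 in edgeR with the block, and 1685 and 1423 in DESeq2. Leaving out each library gave 300 to 812 higher and 197 to 720 lower at 18 h, and 463 to 1012 and 313 to 828 at 24 h. Between 24 h and 18 h, limma called 3 and 1 of 17951, edgeR with the block 149 and 63 of 16010, and DESeq2 33 and 5 of 12878. The causes of these shifts were not tested. Among the 9 members, Cfc1 had the fewest reads, 4 to 47 per library.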
